A study of Rattus norvegicus with 34 samples.

Results

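The immediate early transcription factors described here are 10 genes of the array: Fos, Fosl1, Jun and Junb, Egr1 and Klf6, Myc, Ier3, and Nr4a1 and Nr4a3. They were chosen by gene symbol, and 17 of the 31099 probe sets (groups of short probes that read 1 transcript) carry 1 of these symbols, among 14217 named genes in all. Immediate early genes are switched on within minutes of a growth factor, hormone or injury signal, without new protein synthesis, and most are switched off again soon after. The Fos and Jun proteins pair to form AP-1, Egr1 and Klf6 are zinc finger factors, Myc pairs with Max at E-boxes and drives ribosome and nucleotide synthesis, Ier3 is a regulator of survival and of the ERK pathway, and Nr4a1 and Nr4a3 are orphan nuclear receptors. In kidney and liver these genes are known for their brief rise after injury, ischaemia or partial removal of the organ.

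The study holds 34 arrays of rat RNA. NRK-52E cells, an epithelial line from rat kidney that the labels describe as proximal tubule cells of Osborne-Mendel origin, were treated with monuron, a phenylurea herbicide, or with 0.1% DMSO alone for 6, 24 or 72 h, with 3 arrays for each treatment and time. Male Wistar-derived rats aged 7 to 9 weeks and weighing 190 to 240 g received monuron in corn oil (5 ml/kg), with a first dose of 40 mg/kg followed by daily doses of 400 mg/kg on days 2 and 3, or corn oil alone, and kidney and liver were profiled with 4 arrays for each treatment and organ. The labels call the cells monuron-treated, whereas the protocol for the cells names chlorothalonil (CHL) at 1.1 µM in 0.1% DMSO, so the compound given to the cells cannot be settled from these sources, and "monuron" below follows the labels. For the rats the sample labels give 72 h of treatment and the protocol gives 72 h between the last dose and death. The design text gives 8 rats in all, so kidney and liver arrays share animals, but the labels do not say which kidney goes with which liver, and the joint fit of both organs treats all arrays as independent.

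Values are log2 expression, on which a difference of 1 unit is a doubling, and the median over probe sets of a single array lay between 3.96 and 4.18 in cells, 3.89 and 3.94 in kidney and 3.66 and 3.78 in liver. A gene entered the test if at least 3 cell arrays, or 4 arrays of an organ, had it above the array median, and a gene is called changed where limma's adjusted p is below 0.05 over all genes tested in that fit. Arrays of a group correlated at 0.987 to 0.999. All 8 proximal tubule markers and all 6 measured markers of other nephron segments lay above the array median in kidney, as did all 7 measured hepatocyte markers in liver. In the cells Gatm was the proximal tubule marker above the array median in all 6 groups, Aqp1 was above it in DMSO cells at 72 h, and Lrp2, Cubn, Slc34a1, Slc5a2, Slc22a6 and Kap were below it throughout. Of 6 epithelial markers the cells had Krt8 above the array median, while Krt18, Krt19, Cdh1, Epcam and Cldn4 were below it, and all 6 mesenchymal markers, among them Vim, were above it. The DMSO array of replicate 3 at 72 h stood apart from the other DMSO arrays of that time for several genes described here. Results of the members at 72 h are given without it where it decides them.

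Detection separated the members by sample type. In cells, Fos, Jun, Junb, Egr1, Klf6, Myc and Ier3 were well above the array median in all 6 groups, Nr4a1 and Nr4a3 were near or below it, and Fosl1 was close to the floor of the scale on all but 3 arrays. Fos lay between 10.23 and 12.23 on the 18 cell arrays, and between 3.04 and 4.90 on the 16 organ arrays, where it passed the filter in neither organ. The other probe set of Fos averaged 2.06 to 2.10 in the cell groups and was above the array median on no array. The Fos results below therefore rest on the brighter probe set alone. Values of cells and organs are given side by side with no test, because the distribution of values differs between sample types.

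In the cells, most tested members rose from 6 h to 24 h whether monuron was present or not. Between 6 h and 24 h, 7 of 9 tested members rose in monuron cells, against 27.3% of all genes called higher and 30.2% called lower. In DMSO cells 8 of 9 rose, against 24.8% of all genes called higher and 28.3% called lower. Fos, the AP-1 subunit that pairs with Jun proteins, rose by 1.25 in monuron cells (SE 0.17, adjusted p = 1.41e-05) and by 0.92 in DMSO cells (SE 0.17, adjusted p = 0.000325) between 6 h and 24 h. Ier3 rose by 0.89 in monuron cells and by 0.58 in DMSO cells. Myc rose in DMSO cells by 0.98 (SE 0.27, adjusted p = 0.00606), and its change in monuron cells was 0.30 (SE 0.27, adjusted p = 0.354), with monuron values of 9.01, 9.27 and 9.06 at 6 h. Nr4a1 rose under both treatments, by 1.01 in monuron cells and 0.67 in DMSO cells, and both calls were lost when values were limited at the array median (0.08 and 0.13). The Klf6 rise in monuron cells (0.51, adjusted p = 0.0284) was lost without monuron replicate 1 or 2 of 6 h or 2 or 3 of 24 h, and the Jun rise (0.43, adjusted p = 0.0195) without monuron replicate 2 of 6 h. In DMSO cells the Jun rise (0.46, adjusted p = 0.0136) was lost without replicate 3 of 6 h, and that of Nr4a1 without replicate 3 of 6 h or 2 of 24 h. With arrays centred on their medians the Jun and Klf6 rises in monuron cells were not called (adjusted p = 0.0536 and 0.0731), nor were the Jun and Junb rises in DMSO cells (adjusted p = 0.0741 and 0.0626).

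Between 24 h and 72 h Fos, Junb and Ier3 fell under both treatments. In monuron cells 2 of 9 tested members rose, Egr1 and Nr4a3, and 3 fell, Fos, Junb and Ier3, against 28.6% of all genes called higher and 32% called lower. Nr4a3 passed the filter through its monuron arrays of 72 h alone, so a high level there was a condition of its being tested. In DMSO cells none rose and 6 fell, Fos, Junb, Ier3, Klf6, Myc and Nr4a1, against 11.6% called higher and 16.4% called lower. All DMSO values of Nr4a1 lay below the array median, and limited there its change was -0.00456 (adjusted p = 0.989). Fos fell by 1.21 in monuron cells (SE 0.17, adjusted p = 2.23e-05) and by 1.22 in DMSO cells (SE 0.17, adjusted p = 0.000102). Junb, an AP-1 subunit that can restrain Jun, fell by 1.33 in monuron cells (SE 0.12, adjusted p = 3.39e-07) and by 1.27 in DMSO cells (SE 0.12, adjusted p = 4.52e-06). Egr1 rose by 0.74 in monuron cells (SE 0.18, adjusted p = 0.00256), and its change in DMSO cells was -0.42 (SE 0.18, adjusted p = 0.105). In DMSO cells the Klf6 and Myc calls were lost without any 1 DMSO array of 24 h and without DMSO replicate 1 or 2 of 72 h, and the Nr4a1 call without replicate 2 or 3 of 24 h or replicate 1 or 2 of 72 h, so that 3 of the 6 calls held in the fit with the fewest.

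**Figure D1:**
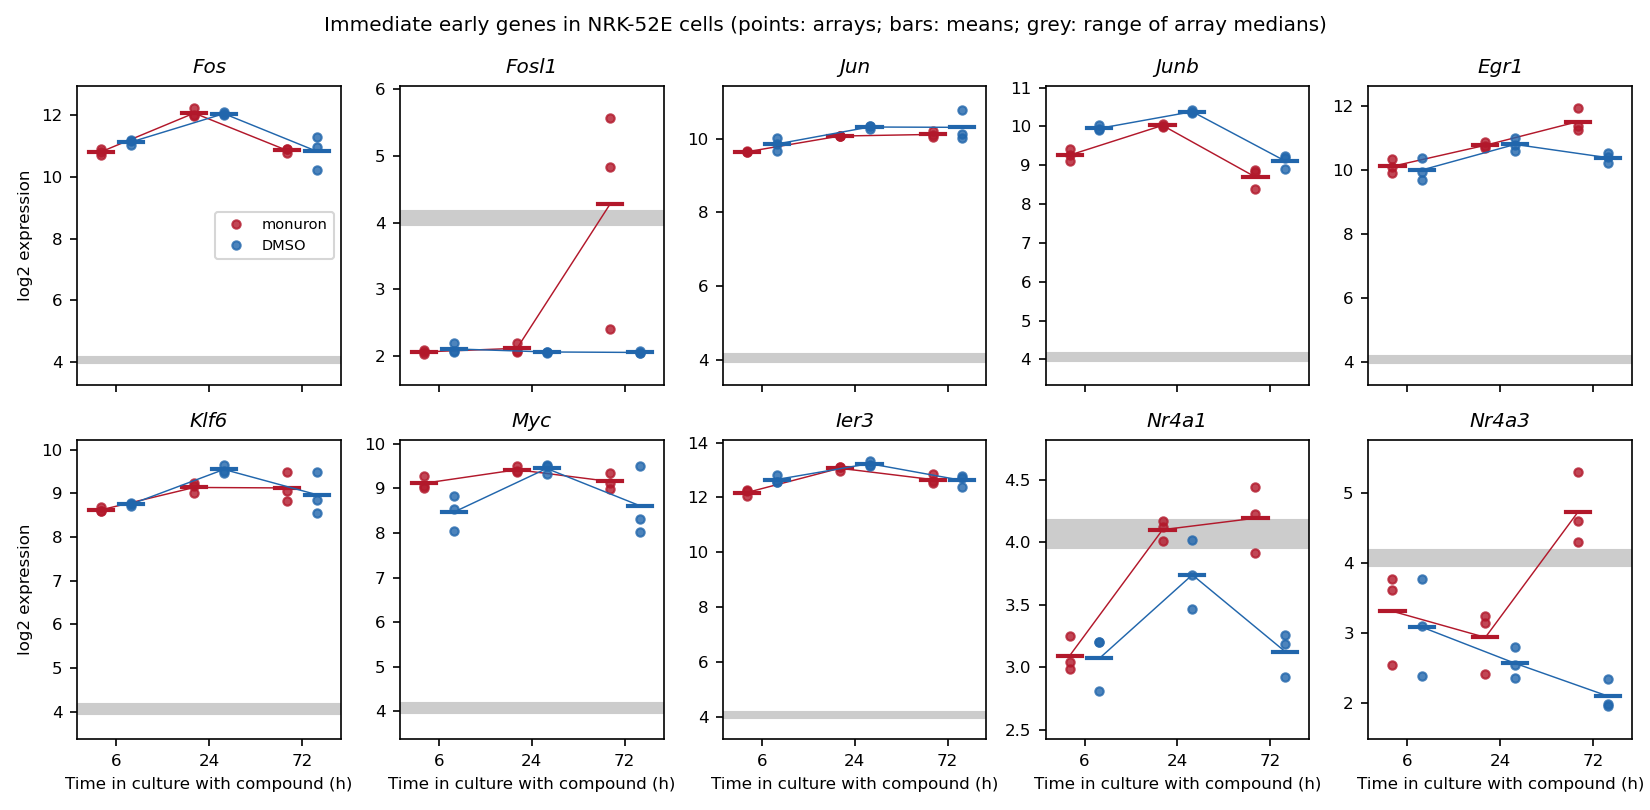
Log2 expression of the 10 members in NRK-52E cells at 6, 24 and 72 h, with a panel for each gene, monuron arrays in red left of DMSO arrays in blue, bars at group means and the range of array medians in grey. Lines join the means: Fos, Junb and Ier3 are highest at 24 h under both treatments, Egr1 and Nr4a3 are highest in monuron cells at 72 h, and Fosl1 lies above the array median on 2 monuron arrays at 72 h.

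**Figure D2:**
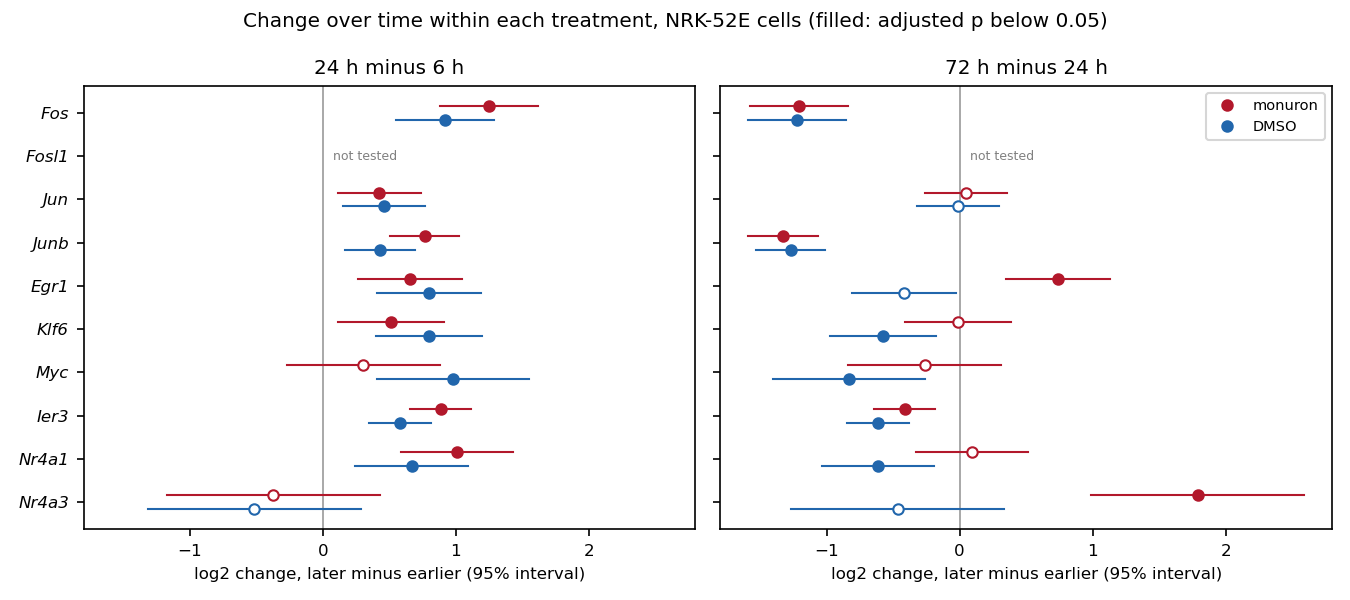
Log2 change of each member between successive times, later minus earlier, with 95% intervals, monuron in red above DMSO in blue, and filled points where the adjusted p is below 0.05. The changes from 6 h to 24 h lie mostly above 0 under both treatments, and those of Egr1 and Nr4a3 from 24 h to 72 h lie above 0 in monuron cells and not in DMSO cells.

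Monuron at 6 h lowered Junb and Ier3. Junb was 9.26, 9.10 and 9.42 in monuron cells, against 9.90, 10.03 and 9.92 in DMSO cells. The groups did not overlap, and Junb fell to 0.62 times the DMSO level (log2 difference -0.69, SE 0.12, adjusted p = 0.00536). Ier3 was 12.23, 12.06 and 12.26 in monuron cells, against 12.81, 12.57 and 12.58 in DMSO cells. It was lower on every monuron array, with a log2 difference of -0.47 (SE 0.11, adjusted p = 0.0195), and the call was lost without monuron replicate 2 or without DMSO replicate 1 (adjusted p = 0.11 and 0.109). These 2 of 9 tested members stood against 3.02% of all genes called lower, and none was called higher, against 3.3% of all genes.

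Myc, Fos and Klf6 at 6 h did not overlap between the treatments and were not called. The share of all genes separated in this way was not counted, at any time or in the organs. Myc was 9.01, 9.27 and 9.06 in monuron cells, against 8.83, 8.54 and 8.04 in DMSO cells, a log2 difference of 0.65 (SE 0.27, adjusted p = 0.157). Every monuron value was above every DMSO value. Fos was 10.91, 10.72 and 10.82 in monuron cells, against 11.05, 11.15 and 11.19 in DMSO cells, a log2 difference of -0.31 (SE 0.17, adjusted p = 0.294). Leaving a DMSO array of 72 h out of the shared estimate of spread brought Myc and Fos beyond the threshold. Myc was called by limma without replicate 3 (adjusted p = 0.0146) and Fos without replicate 1 (adjusted p = 0.0376). Jun, Egr1, Klf6, Nr4a1 and Nr4a3 had log2 differences between -0.21 and 0.23 at 6 h.

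At 24 h no member was called, against 6.43% of all genes called higher and 7.14% called lower. An unadjusted p below 0.05 by limma was found for 2 of 9 members and for 29.3% of all genes. Junb was 9.99, 10.07 and 10.02 in monuron cells, against 10.37, 10.35 and 10.42 in DMSO cells. All 3 monuron values were lower, with a log2 difference of -0.35 (SE 0.12, adjusted p = 0.0654). Klf6, a zinc finger factor of tissue injury, was 9.01, 9.16 and 9.24 in monuron cells, against 9.48, 9.53 and 9.65 in DMSO cells, a log2 difference of -0.41 (SE 0.19, adjusted p = 0.157). Jun and Ier3 also had monuron values wholly below the DMSO values at 24 h, with log2 differences of -0.25 and -0.17. How many of all genes were separated in this way at 24 h was not counted, so the separation has no background to be read against. Fitted on the 6 arrays of 24 h alone, Junb, Klf6 and Jun were called lower (adjusted p = 0.00173, 0.00508 and 0.0100). In the fit of all times Junb was called at 24 h without monuron replicate 1 or 3 or DMSO replicate 1 or 3 of 72 h (adjusted p = 0.0300, 0.0490, 0.0379 and 0.0418), and Klf6 without DMSO replicate 3 of 72 h (adjusted p = 0.0371). No member's monuron difference changed between 6 h and 24 h, against 0.641% of all genes with a higher and 0.575% with a lower difference at 24 h. For that change 0 of 9 members had an unadjusted p below 0.05 by limma, against 18.7% of all genes.

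At 72 h Egr1, Nr4a1 and Nr4a3 were higher in monuron cells and Junb was lower. These were 3 and 1 of 9 tested members, against 30.7% of all genes called higher and 30.9% called lower. Read against those shares, 4 of 9 is not above the background. Nr4a1 and Nr4a3 passed the detection filter through monuron arrays alone, so for these receptors a difference was a condition of being tested. The Egr1 call did not depend on this. Egr1, which is induced through serum response factor and ERK, was 11.25, 11.36 and 11.92 in monuron cells, against 10.40, 10.20 and 10.53 in DMSO cells. The groups did not overlap, and Egr1 rose to 2.19 times the DMSO level (log2 difference 1.13, SE 0.18, adjusted p = 7.7e-05), a call that held whichever array was left out.

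Nr4a1 and Nr4a3 were near the background at 72 h. Nr4a1 was 3.91, 4.44 and 4.22 in monuron cells, against 2.92, 3.19 and 3.26 in DMSO cells, a log2 difference of 1.07 (SE 0.20, adjusted p = 0.000253). Nr4a3 was 4.60, 4.30 and 5.29 in monuron cells, against 2.00, 1.96 and 2.35 in DMSO cells, a log2 difference of 2.63 (SE 0.38, adjusted p = 2.32e-05). Both receptors were higher on every monuron array, and both passed the detection filter through monuron arrays alone, so a difference was a condition of their being tested. With values below the array median set to that median, the Nr4a1 difference was 0.11 (adjusted p = 0.432) and the Nr4a3 difference 0.60 (adjusted p = 0.00732). The other 2 probe sets of Nr4a3 averaged 2.75 and 2.14 in monuron cells and 2.39 and 2.10 in DMSO cells, below the array median in both.

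Junb at 72 h was 8.39, 8.82 and 8.88 in monuron cells, against 8.90, 9.20 and 9.23 in DMSO cells. The groups were separated by a narrow gap, and Junb fell by 0.41 (SE 0.12, adjusted p = 0.0084), a call lost without monuron replicate 1 (-0.26, adjusted p = 0.0543) and in a fit of the 72 h arrays alone (adjusted p = 0.101). Fosl1, an AP-1 subunit induced in growing and invading cells, was 2.41, 4.84 and 5.57 in monuron cells, against 2.04, 2.04 and 2.07 in DMSO cells. Only 2 monuron arrays lay above the array median, so it was not tested; with no filter its log2 difference was 2.22 (adjusted p = 0.0021).

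Myc at 72 h turned on 1 DMSO array. It was 8.99, 9.13 and 9.35 in monuron cells, against 8.32, 8.03 and 9.50 in DMSO cells. The DMSO array of replicate 3 was above all 3 monuron arrays and the other 2 were below them, which gave a log2 difference of 0.54 (SE 0.27, adjusted p = 0.093). Same-numbered arrays of this time correlated at 0.167 to 0.317 across genes, but arrays of different number reached 0.275, so a pairing is not established. With the number as a block the adjusted p was 0.0446. Without the DMSO array of replicate 3 the difference was 0.98 (adjusted p = 0.000124). Klf6 showed the same array: 8.82, 9.06 and 9.50 in monuron cells, against 8.86, 8.56 and 9.50 in DMSO cells. Its log2 difference was 0.15 (adjusted p = 0.495) with that array and 0.42 (adjusted p = 0.0223) without it. Fos, Jun and Ier3 overlapped between the treatments, with log2 differences of 0.03, -0.19 and 0.03, and without DMSO replicate 1 the Fos difference was -0.27 (adjusted p = 0.0319). The other probe sets of Jun differed by -0.47 and 0.15, in opposite directions, and neither was called when tested on its own.

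The monuron difference of Egr1 grew between 24 h and 72 h by 1.16 (SE 0.26, adjusted p = 0.00291) and that of Nr4a3 by 2.26 (SE 0.53, adjusted p = 0.00392). These were 2 of 9 tested members, against 18.3% of all genes with a higher and 19.6% with a lower difference at 72 h. With values limited at the array median the Nr4a3 change was 0.60 (adjusted p = 0.0678), so its call was lost. Without the DMSO array of replicate 3 at 72 h, Klf6 (0.83, adjusted p = 0.00295) and Myc (1.01, adjusted p = 0.00226) were also called, as was Nr4a1 (0.77, adjusted p = 0.0418). Nr4a1 was called too without monuron replicate 1 of 72 h or DMSO replicate 1 of 24 h, but with all arrays and values limited at the array median its change was 0.09 (adjusted p = 0.703). Klf6 was called too without monuron replicate 1 of 72 h. Nr4a3 no longer passed the filter without any 1 monuron array of 72 h.

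Stretches of the start regions of Egr1, Nr4a1 and Junb are shown, Egr1 and Junb because they differed in monuron cells, and Nr4a1, whose calls were lost when values were limited at the array median, because its window held the most matches of those listed. The sequences are from RefSeq on GRCr8, from 250 bases before to 50 after the transcription start, and lie at chr18:26736828-26737127 (+ strand) for Egr1, chr7:134259888-134260187 (+ strand) for Nr4a1 and chr19:40080876-40081175 (+ strand) for Junb. Capitals mark matches on either strand to a CArG box (the serum response factor site: CC, 6 of A or T, GG), to TGACG (the core of a cyclic AMP response element) and to GCGGGGGCG (an EGR box).
Egr1: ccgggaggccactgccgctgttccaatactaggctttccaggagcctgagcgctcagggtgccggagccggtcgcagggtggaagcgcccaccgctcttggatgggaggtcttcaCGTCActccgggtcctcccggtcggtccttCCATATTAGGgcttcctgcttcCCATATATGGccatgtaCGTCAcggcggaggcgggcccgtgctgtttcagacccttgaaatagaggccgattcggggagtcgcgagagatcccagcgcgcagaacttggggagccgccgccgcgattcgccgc
Nr4a1: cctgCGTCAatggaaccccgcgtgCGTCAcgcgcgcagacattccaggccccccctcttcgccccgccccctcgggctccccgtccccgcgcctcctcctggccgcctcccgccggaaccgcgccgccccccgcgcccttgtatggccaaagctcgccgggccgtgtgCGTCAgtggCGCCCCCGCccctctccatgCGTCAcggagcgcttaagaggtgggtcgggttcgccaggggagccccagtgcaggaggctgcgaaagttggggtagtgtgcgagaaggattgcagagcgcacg
Junb: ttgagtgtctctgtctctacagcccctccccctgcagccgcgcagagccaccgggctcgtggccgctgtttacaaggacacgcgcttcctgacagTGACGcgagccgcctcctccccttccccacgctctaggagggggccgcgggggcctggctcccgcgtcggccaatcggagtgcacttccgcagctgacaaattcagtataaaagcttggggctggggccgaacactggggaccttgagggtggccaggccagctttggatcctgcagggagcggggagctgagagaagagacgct
The Egr1 window held 2 CArG boxes, from -105 to -96 and from -83 to -74, and 2 matches to TGACG. The Nr4a1 window held 4 matches to TGACG and 1 to GCGGGGGCG, and the Junb window held 1 to TGACG. Windows were listed for 5 of the 10 members, and of the other 2 listed, Fosl1 held 2 matches to TGACG and Klf6 held 1 CArG box and 1 CACGTG (an E-box). Over 33469 windows of the same length, 1.64% held a CArG box, 21.2% TGACG, 2.73% GCGGGGGCG and 6.42% CACGTG. The full AP-1 element TGANTCA, held by 7.33% of windows, and the full element TGACGTCA, held by 1.83%, had no match in the 5 windows; these letters describe the windows and not the binding of a factor.

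In kidney all 7 tested members were lower on average in monuron rats, and 4 were called lower: Myc, Egr1, Jun and Nr4a1. Nr4a1 passed the filter through its control arrays, so its lower level was partly a condition of its being tested. Of all genes tested in kidney 6.34% were called lower and 3.87% higher, and the median log2 difference was -0.79 over the 7 members and -0.08 over all genes. Fewer cells of a type and less RNA per cell cannot be told apart in whole organs. Myc was 5.08, 5.38, 4.82 and 5.05 in monuron kidneys, against 7.36, 6.88, 8.32 and 6.84 in control kidneys. The groups were far apart, and Myc fell to 0.208 times the control level (log2 difference -2.27, SE 0.30, adjusted p = 0.00365). Egr1 was 6.84, 7.18, 6.49 and 5.65 in monuron kidneys, against 8.98, 7.87, 9.08 and 8.36 in control kidneys. It too was lower on every monuron array, at 0.244 times the control level (log2 difference -2.03, SE 0.35, adjusted p = 0.00936). The calls on Myc and Egr1 held whichever array was left out, with differences of -2.44 to -1.94 for Myc and -2.27 to -1.74 for Egr1.

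The Jun and Nr4a1 differences in kidney were smaller and lay close to the threshold. Jun, the central AP-1 subunit, was 10.54, 9.88, 9.69 and 9.83 in monuron kidneys, against 10.71, 10.43, 11.24 and 10.73 in control kidneys. Monuron replicate 1 lay inside the control range, and the log2 difference was -0.79 (SE 0.21, adjusted p = 0.04). The other 2 probe sets of Jun differed by -0.86 (SE 0.19) and -0.70 (SE 0.17), and both were called when every probe set was tested on its own, a setting chosen after seeing the data (adjusted p = 0.0260 and 0.0406). Nr4a1 was 4.28, 3.64, 3.59 and 3.61 in monuron kidneys, against 4.81, 4.18, 4.77 and 4.66 in control kidneys, a log2 difference of -0.83 (SE 0.22, adjusted p = 0.043). Of its monuron values 3 lay below the array median and all 4 control values above it, so the gene passed the filter through the controls. With values limited at that median the difference was -0.60 (adjusted p = 0.0576). Both calls held in 2 of the 8 fits that left out an array, those without monuron replicate 1 or control replicate 2.

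The remaining kidney members were not called. Klf6 was 7.76, 8.27, 7.84 and 8.12 in monuron kidneys, against 8.32, 8.34, 8.73 and 8.41 in control kidneys. The groups did not overlap, and the log2 difference was -0.45 (SE 0.14, adjusted p = 0.0655). It was called without monuron replicate 2 (-0.54, adjusted p = 0.0488). The other 2 probe sets of Klf6 differed by -0.23 (SE 0.23) and by 0.53 (SE 0.28), and neither was called. Junb differed by -0.40 (SE 0.22, adjusted p = 0.269) and Ier3 by -0.32 (SE 0.25, adjusted p = 0.427), with overlapping groups. Fos, Fosl1 and Nr4a3 were not tested: Fos was 3.57, 3.48, 3.04 and 3.39 in monuron kidneys, against 3.50, 4.36, 4.90 and 3.46 in control kidneys, and the other two were below 2.40 on all 8 arrays. Among control kidneys the array of replicate 3 was the highest for 5 of the 7 tested members. Immune markers had a mean level of 7.05 to 7.41 in monuron kidneys and 7.12 to 7.43 in control kidneys, with Cd68 and Cd3e below the array median in both and Ptprc called higher in monuron kidneys. Endothelial markers ranged from 8.93 to 9.64 in monuron kidneys and from 9.05 to 9.27 in control kidneys, with Vwf called higher. Epithelial markers ranged from 9.65 to 10.14 in monuron kidneys and from 9.96 to 10.84 in control kidneys, with Krt8 called lower. Hepatocyte markers ranged from 5.41 to 7.48 in monuron kidneys and from 4.99 to 6.44 in control kidneys, with Cyp2e1 called lower and Apoa1 and Serpina1 below the array median in both. Proximal tubule markers ranged from 14.01 to 14.13 in monuron kidneys and from 13.73 to 13.81 in control kidneys, with Lrp2, Cubn and Gatm called higher. The part of these markers in the result was not tested.

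**Figure D3:**
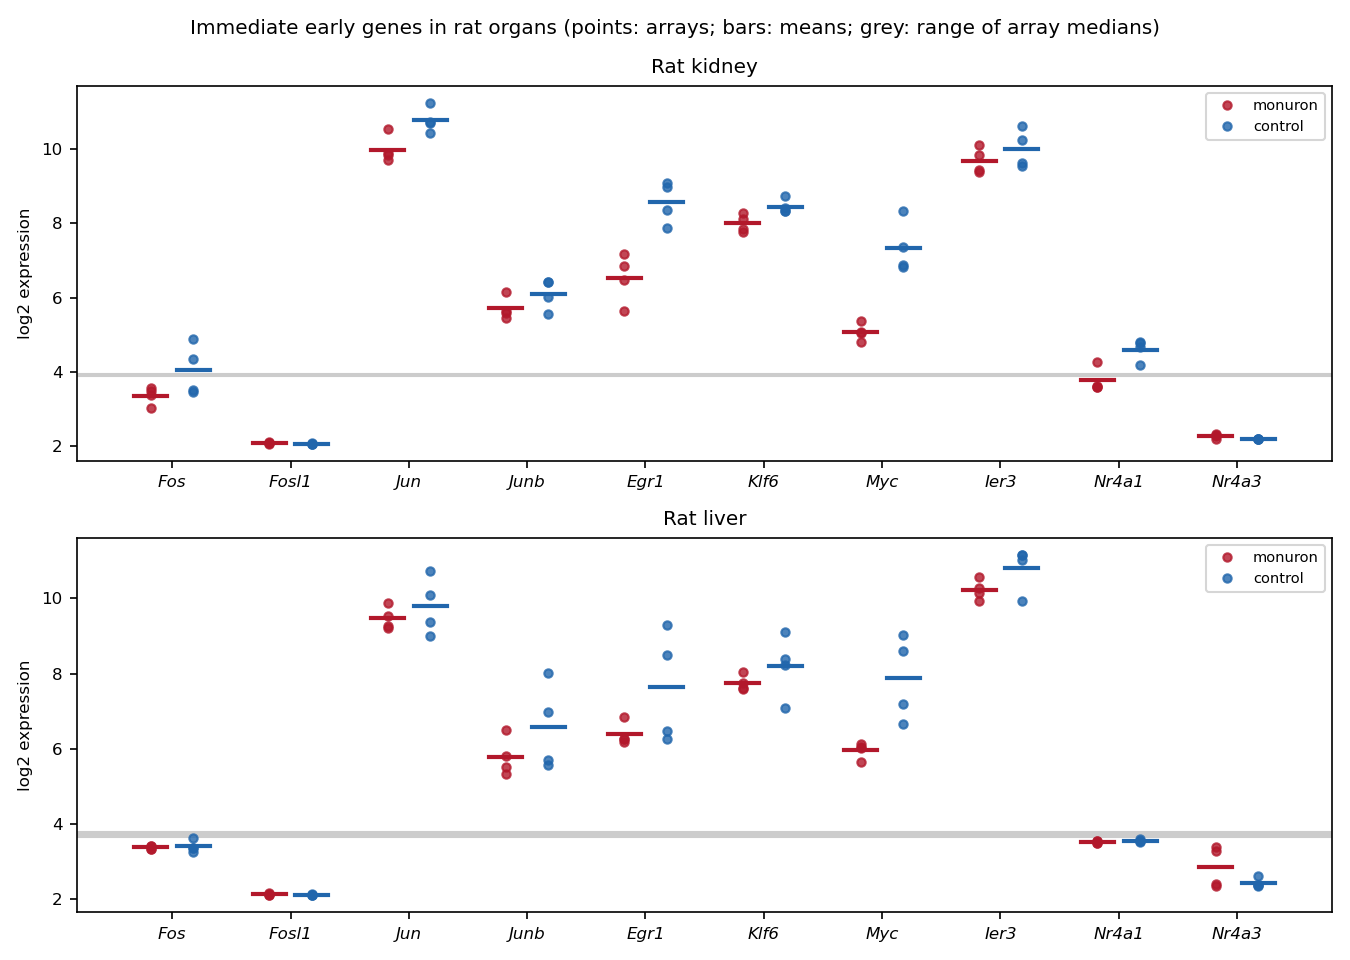
Log2 expression of the 10 members in rat kidney (upper panel) and liver (lower panel), with monuron arrays in red left of control arrays in blue, bars at group means and the range of array medians in grey. Myc and Egr1 are separated between the groups in kidney, and in liver the spread of the control arrays is wide for Egr1, Junb and Myc.

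In liver all 6 tested members were lower on average in monuron rats and none was called. An unadjusted p below 0.05 by limma was found for 1 of 6, against 24% of all genes. Of all genes tested in liver 2.02% were called lower and 1.1% higher, and the median log2 difference was -0.69 over the 6 members and -0.07 over all genes. Myc was 5.66, 6.03, 6.04 and 6.12 in monuron livers, against 8.60, 6.67, 7.19 and 9.02 in control livers. Every monuron value was below every control value, with a log2 difference of -1.91 (SE 0.47, adjusted p = 0.064). In the joint fit of both organs, which shares the spread, Myc was called (adjusted p = 0.0112), and in the liver fit it was called without control replicate 3 (-2.14, adjusted p = 0.0469).

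Egr1 and Junb in liver were decided by 2 control arrays. Egr1 was 6.27, 6.19, 6.25 and 6.84 in monuron livers, against 9.30, 6.48, 6.25 and 8.50 in control livers, a log2 difference of -1.24 (SE 0.63, adjusted p = 0.26). Control replicates 1 and 4 were high, and replicates 2 and 3 lay within the monuron range. Junb was 5.52, 5.81, 5.33 and 6.50 in monuron livers, against 6.99, 5.57, 5.71 and 8.03 in control livers, a log2 difference of -0.79 (SE 0.52, adjusted p = 0.394). The same 2 arrays were the highest for Junb and for Myc. Jun, Klf6 and Ier3 had overlapping groups and log2 differences of -0.33, -0.45 and -0.59, and the Ier3 difference was -0.89 (adjusted p = 0.0454) without control replicate 2, which was the lowest control array for Ier3 at 9.92. Nr4a1 lay between 3.50 and 3.59 on all 8 liver arrays, below the array median, and was not tested, as Fos, Fosl1 and Nr4a3 were not. Mean marker levels were separated between the liver groups for the immune, mesenchymal and proximal tubule lists. Those of the epithelial, endothelial, erythroid, other nephron and hepatocyte lists overlapped, with hepatocyte markers at 15.65 to 15.68 in monuron and 15.67 to 15.70 in control livers. Immune markers ranged from 8.67 to 8.84 in monuron livers and from 8.32 to 8.65 in control livers, with none of 7 called. Mesenchymal markers ranged from 7.27 to 7.39 in monuron livers and from 6.98 to 7.20 in control livers, with Vim called higher and Acta2 below the array median. Proximal tubule markers ranged from 4.61 to 4.85 in monuron livers and from 3.94 to 4.47 in control livers, with Aqp1 and Gatm called higher and Cubn, Slc5a2 and Slc22a6 below the array median. Their part in the liver values was not tested.

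No member's monuron difference was called different between liver and kidney, against 1.09% of all genes with a higher and 1.59% with a lower difference in liver. An unadjusted p below 0.05 by limma was found for 1 of 7 members and for 16.5% of all genes. The difference of differences was 0.36 for Myc (95% interval -0.91 to 1.62) and 0.79 for Egr1 (95% interval -0.84 to 2.42). These intervals are wide, and include both equal and clearly unequal responses of the organs. For Nr4a1 it was 0.80 (SE 0.24, adjusted p = 0.092), for a gene that lay below the array median in liver, and it was called without monuron kidney replicate 1 (0.97, adjusted p = 0.0239) or control kidney replicate 2 (0.95, adjusted p = 0.0380).

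**Figure D4:**
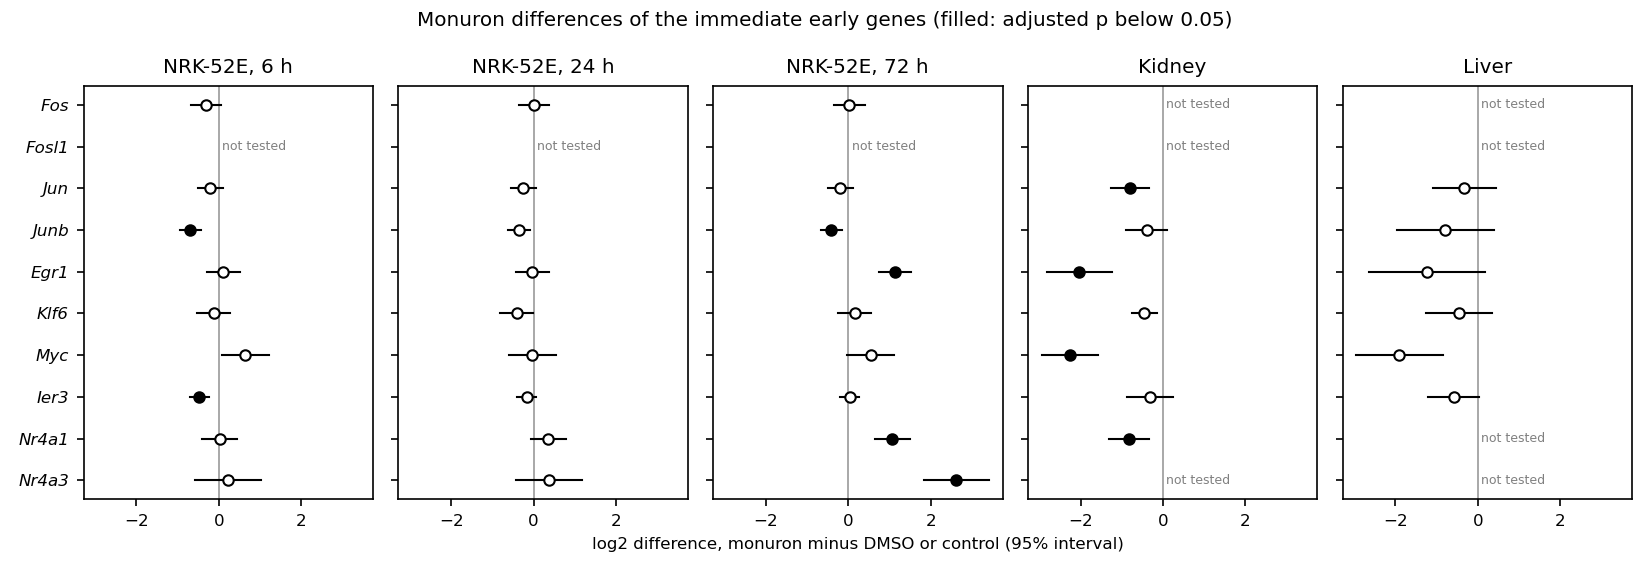
Log2 difference of each member, monuron minus DMSO in NRK-52E cells at 6, 24 and 72 h and monuron minus control in kidney and liver, with 95% intervals and filled points where the adjusted p is below 0.05. Egr1 lies above 0 in cells at 72 h and below 0 in kidney, and all tested members lie below 0 in both organs.

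Genes that work with the members were followed through 6 lists, each read against the share of all genes called in the same comparison. Of related AP-1 subunits, Jdp2, a repressor of AP-1, rose in monuron cells at 6 h by 0.98 (SE 0.17, adjusted p = 0.00509) and at 24 h by 1.04 (SE 0.17, adjusted p = 0.0019), alone of 8 tested at each time. Of all genes 3.3% were called higher at 6 h and 6.43% at 24 h. At 72 h 6 of 8 rose and none fell, against 30.7% of all genes higher and 30.9% lower, and with single arrays left out 4 to 7 were higher. Among them were the small Maf protein Maff, higher by 1.32 (SE 0.23, adjusted p = 0.000118), and Mafg, higher by 0.80 (SE 0.16). Atf3, a stress-induced partner of Jun, was 9.54, 9.61 and 10.81 in monuron cells at 72 h, against 3.62, 4.42 and 9.25 in DMSO cells. The DMSO array of replicate 3 was again the high one, close to the monuron arrays, and the value of DMSO replicate 1 lay below the array median. With all arrays the log2 difference was 4.22 (SE 0.91, adjusted p = 0.000851). The DMSO values averaged 5.76 with an SD of 3.04, so the size of this difference depends on DMSO replicate 3, and the value without it is not given here. In kidney 2 of 5 fell, against 6.34% of all genes. Maff averaged 4.11 ± 0.65 in monuron kidneys and 6.04 ± 0.24 in control kidneys (SD, n = 4 each), a log2 difference of -1.94 (SE 0.30, adjusted p = 0.00588 by limma). Of the Maff values in monuron kidneys 2 lay below the array median and all 4 control values above it, so the controls alone met the filter. Mafg fell by 0.32. Whichever kidney array was left out, 1 of the list was called lower and 0 to 1 higher. In liver 1 of 4 fell, Mafg by 0.75 (adjusted p = 0.0404), against 2.02% of all genes called lower. When single liver arrays were left out 0 to 1 were lower and 0 to 1 higher.

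Of 34 related early response genes tested in kidney 7 fell and none rose, against 6.34% of all genes lower and 3.87% higher, with 6 to 9 lower and none higher whichever array was left out. Plk2, a kinase of the stress response, was 5.32, 5.29, 5.23 and 5.18 in monuron kidneys, against 6.86, 6.64, 6.70 and 6.18 in control kidneys. It was lower on every monuron array, with a log2 difference of -1.34 (SE 0.16, adjusted p = 0.00175). Ccn1, a matricellular protein induced with Egr1, fell by 1.60 (SE 0.19, adjusted p = 0.00197), and Nab2, a co-repressor that Egr1 induces and that binds it, fell by 1.90 (SE 0.28, adjusted p = 0.00479). Of the Nab2 values in monuron kidneys 3 of 4 lay below the array median and all 4 control values above it, so that gene passed the filter through the controls. In liver none of 31 was called by limma. In cells the same list had 1 higher and 1 lower of 33 at 6 h, 4 higher and 3 lower at 24 h, and 16 higher and 10 lower at 72 h. The shares of all genes called higher and lower were 3.3% and 3.02% at 6 h, 6.43% and 7.14% at 24 h, and 30.7% and 30.9% at 72 h. The numbers higher and lower at 6 h, and the numbers lower at 24 h and at 72 h, are thus near the background. With single arrays left out the number lower at 6 h ranged from 0 to 7 and the number higher at 24 h from 1 to 5, with 7 and 5 without DMSO replicate 3 of 72 h. Ccn2, a matricellular protein, rose by 0.27 at 6 h, and Phlda1, an apoptosis-linked protein, fell by 1.49 at 6 h and by 1.66 at 24 h. For Phlda1 all monuron values of both times lay below the array median and all DMSO values above it, so these DMSO arrays were enough to meet the filter. At 72 h Nr4a2, another receptor of the Nr4a family, rose by 1.23 (SE 0.15, adjusted p = 5.21e-06), Srf, which binds CArG boxes, by 0.91 (SE 0.12), and Errfi1, a brake on the EGF receptor, by 0.91 (SE 0.12). At 72 h Klf5 fell by 1.22, and the inhibitors of differentiation Id1 and Id3 were lower, with log2 differences of -0.99 and -1.68.

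On the MAPK route, which carries growth signals to these genes, the phosphatase Dusp1, itself an early response gene and a brake, fell in monuron cells. The fall was 0.57 at 6 h and 0.61 at 24 h (SE 0.12 for both), with adjusted p = 0.0121 at 6 h and 0.00394 at 24 h. It was 1 of 22 tested at 6 h and 1 of 3 lower at 24 h, with Spry2 and Map2k2, and none rose at either time. Of all genes 3.02% were called lower at 6 h and 7.14% at 24 h, so the count at 6 h is near the background. With single arrays left out 0 to 2 of the list were lower at 6 h and 1 to 6 at 24 h. At 72 h 6 rose, among them Spry4, Mapk8 and Map2k1, and 7 fell, among them Map2k2 by 1.05, Elk3 and Mrtfa. Of 22 tested these counts are near the 30.7% and 30.9% of all genes called at that time. In kidney none of 23 was called by limma, and in liver Egfr rose by 0.64 and Map2k2 fell by 0.44 (adjusted p = 0.0466 and 0.0358). These were 1 higher and 1 lower of 21 tested in liver, against 1.1% and 2.02% of all genes. With single liver arrays left out 0 to 1 were higher and 0 to 2 lower.

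Of 28 listed Myc targets 20 rose and 2 fell at 72 h in monuron cells, with 19 to 21 higher when single arrays were left out, at a time when 30.7% of all genes were higher and 30.9% lower. Srm, which makes spermidine, was 11.15, 11.44 and 11.80 in monuron cells, against 8.39, 8.94 and 9.51 in DMSO cells, a log2 difference of 2.52 (SE 0.20, adjusted p = 1.58e-07). The nucleolar proteins Gnl3 and Nolc1 rose by 1.08 and 1.27, while Tfrc, which takes up transferrin-bound iron, was lower by a log2 difference of -4.10 (SE 0.33, adjusted p = 1.61e-07). At 24 h 1 rose and 8 fell, among them Ldha by 0.66, against 6.43% of all genes called higher and 7.14% lower. None was called at 6 h by limma, against 3.3% of all genes higher and 3.02% lower. In kidney 1 rose, Tfrc by 0.55, and 8 fell, among them Nolc1 by 0.62 (adjusted p = 0.00593), Cdk4 by 0.36 and Gnl3 by 0.31. Of all genes in kidney 3.87% were called higher and 6.34% lower. Without control replicate 3 the number of these targets called lower was 3, without monuron replicate 3 it was 4, and without monuron replicate 4 it was 12. In liver 3 fell, among them Mybbp1a by 0.65 (adjusted p = 0.0251), against 2.02% of all genes called lower. The number lower ranged from 0 to 5 when single arrays were left out. Of 13 Myc partners tested in cells, Mycbp alone fell at 6 h and 24 h, against 3.02% and 7.14% of all genes called lower. At 72 h 3 rose and 5 fell, counts near the 30.7% and 30.9% of all genes called higher and lower. Among those that fell were Mycn and the Myc antagonist Mxd4, with log2 differences of -1.58 and -1.40. In each organ none of 12 was called. Of 12 AP-1 targets tested in cells none was called at 6 h. Tgfb1 rose and Cxcl1 fell at 24 h, against 6.43% of all genes higher and 7.14% lower. At 72 h Cd44 and Cxcl1 rose and Timp1 and Areg fell, against 30.7% of all genes higher and 30.9% lower. Of these targets 6 were higher at 72 h without DMSO replicate 3, 4 without DMSO replicate 2, and 1 without DMSO replicate 1 or monuron replicate 3. In kidney none of 13 AP-1 targets was called. In liver Vim was the 1 of 9 called, higher by 0.57, against 1.1% of all genes called higher.

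The genes whose 5 monuron differences (3 times, kidney and liver) lay nearest to those of a member were ranked by the root mean square distance over 7766 genes tested in all fits. Nearest to Egr1 was Ccn1, at 0.42, with differences of 0.45, 0.11 and 0.71 in cells at 6, 24 and 72 h, -1.60 in kidney and -0.62 in liver. Nearest to Myc was Bcl6, a transcriptional repressor, at 0.40, with -1.89 in kidney and -1.75 in liver, followed by Egr1 at 0.48. For Jun the nearest was Map7d1 at 0.08, for Junb Lto1 at 0.17 and then Cited2 at 0.21, for Klf6 Cherp at 0.06 and for Ier3 Ubl7 at 0.04. A member with small differences has more near neighbours, and the distances of different members are not comparable.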

How the data were processed

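Transcript levels were measured on Affymetrix rat arrays, 1 array per sample, in 34 samples. The deposited values are log2 expression that the authors made with GCRMA, per the submitters' processing notes (background correction, normalization and summary of probes). The GCRMA version and the definition of the probe sets were not given in the sources used here. Gene symbols came from the platform annotation: 20826 probe sets carried 1 symbol, 436 several and 9780 none. The 57 control probe sets were left out.

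Each gene was read from 1 single-symbol probe set, the brightest on average in that fit. This left 9042 genes tested in cells, 9542 in kidney, 9361 in liver and 10114 in a joint fit of both organs. The tests were two-sided and used limma 3.58.1 (lmFit, and eBayes with a trend; R 4.3.3), with Benjamini-Hochberg adjustment over all genes of the fit and a threshold of 0.05. One fit held the 18 cell arrays in 6 groups, and each organ had its own fit of 4 arrays against 4. The test of monuron against DMSO cells at 72 h was checked on simulated data with no array that stood apart. The organ fits and the tests of a changed difference were not checked in this way. SE is limma's moderated standard error. The number of arrays limits the precision, and where replicates are not stated to be separate cultures p-values measure only the spread between them. The labels call them biological replicates.

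The members and lists were chosen with earlier results of these data known. The named genes are all 10 members, up to 3 genes of each list and direction, by adjusted p, and the 2 genes nearest to each member; the text names part of them. Same-numbered arrays all correlated positively at 6 h (correlations across genes 0.491, 0.197 and 0.290) and at 72 h (0.205, 0.167 and 0.317), with no label saying why, and not all did at 24 h or in the organs. Some arrays of different number correlated about as highly, up to 0.301 at 6 h and 0.275 at 72 h, so pairing by number is not established.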

Additional observations from a re-analysis of the deposited data

Results flagged for a closer look

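In 4 of the 40 groups of 4 arrays a single array stood apart from the others, by Dixon's criterion, which chance meets in about 1 group in 20. Egr1 had 1 monuron liver at 6.84, above 6.19 to 6.27 in the other 3 monuron livers. Ier3 had 1 control liver at 9.92, below the other 3 control livers at 11.03 to 11.17. Nr4a1 had 1 monuron kidney at 4.28, above 3.59 to 3.64 in the other 3 monuron kidneys. Nr4a3 had 1 control liver at 2.61, a value below the array median.

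The monuron difference in cells changed between 24 h and 72 h for 2 members, by a test of the change itself: Egr1 by 1.16 (adjusted p = 0.00291 by limma) and Nr4a3 by 2.26 (adjusted p = 0.00392 by limma). Nr4a3 passed the filter through the 3 monuron arrays of 72 h alone, and with values limited at the array median its change was 0.60 (adjusted p = 0.0678), so the call was lost.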

How the results depend on the processing

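Over 40 results, 850 values were recomputed under other settings. Direction and side of the threshold were kept in 804, a call was lost in 24 and gained in 21, and 1 reversed: Fos at 72 h was -0.27 (adjusted p = 0.0319) without DMSO replicate 1 and 0.03 with it, and ranged up to 0.26 over the other arrays left out. The cause of these changes was not tested. When each array was left out in turn, the number of members called ranged from 1 to 3 at 6 h, 0 to 2 at 24 h, 2 to 6 at 72 h, 2 to 4 in kidney and 0 to 1 in liver. The range was 0 to 0 for the change of the monuron difference from 6 h to 24 h, 1 to 5 from 24 h to 72 h and 0 to 1 for liver against kidney. Within a treatment it was 5 to 7 in monuron and 6 to 8 in DMSO cells from 6 h to 24 h, and 4 to 5 in monuron and 3 to 6 in DMSO cells from 24 h to 72 h. Fitting the arrays of 1 time alone gave 4 members called at 6 h, 3 at 24 h and 2 at 72 h. With no filter 2 were called in kidney, and 4 had a changed difference from 24 h to 72 h. Limiting values at the array median left 1 changed difference from 24 h to 72 h. The joint fit of both organs called 1 in liver, and leaving out control livers 1 and 4 together, chosen after seeing the data, called 0.

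With the replicate number as a block, 2 members were called at 24 h, Junb and Klf6, and 2 in kidney, Egr1 and Myc, where Jun and Nr4a1 were lost (adjusted p = 0.0866 and 0.074). No label gives a reason for this block, and at 24 h and in kidney same-numbered arrays did not all correlate positively. The block also called a change of the Klf6 difference from 24 h to 72 h (adjusted p = 0.0134), and apart from Myc at 72 h it changed no other member's call in the comparisons of monuron with its controls. Signal over background limits Fosl1, Nr4a1 and Nr4a3 throughout and Fos in the organs.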
